A study of Mus musculus with 8 samples.

Results

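Mesenchymal cells were sorted from the large intestine of Cxcl12 flox/flox mice with and without Foxl1-Cre, and the RNA of each genotype was sequenced as 1 library. The comparison covers every gene symbol averaging 1 FPKM or more over the 2 libraries. FPKM counts the fragments of a gene scaled by transcript length and by library size. This gave 14949 of the 24346 listed genes, and 2 of the 8 libraries of the series. A log2 ratio is that of FPKM + 1, knockout over control, so a negative value means lower in the knockout library. Counts at 1.5-fold and 2-fold use this FPKM + 1 scale, which understates the difference of low genes. Paired values give the control first and the knockout second. Each genotype had a single library, so there is no test, no p-value and no replicate error, and each ratio describes these 2 libraries.

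The control genotype was Cxcl12 flox/flox with no Cre, and the knockout genotype was Foxl1cre with Cxcl12 flox/flox. Both were untreated, and both carried the floxed alleles. The labels define the sorted cells as lacking CD31, CD45, EpCAM and Ly6C, with gp38 (podoplanin) present and PDGFRα high. The control lacks Cre, so the presence of Cre and the loss of Cxcl12 cannot be told apart. Cre is driven by Foxl1, so deletion is limited to cells that express or once expressed Foxl1, and other cells in the gate keep the gene. The age and strain of these mice, the number of animals behind a library, the hour of collection and the floxed exon are missing from the labels. The other 6 libraries came from cells treated with GABA and taurine (3 at 0 h and 3 at 6 h), and serve here only to place genes and to show how far replicate libraries lie apart.

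CXCL12 is a chemokine that is secreted by stromal cells, signals through the receptor CXCR4 and is scavenged by ACKR3, while the protease DPP4 cleaves and inactivates it. Foxl1 is a forkhead transcription factor of mesenchymal cells that lie directly under the gut epithelium and are known as a source of Wnt and BMP ligands. The deletion asks what these cells express when they can no longer make CXCL12, and the series ties that chemokine to the metabolism of epithelial cells and to intestinal tumours.

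Genes were split by where else they are known or were detected. The first class held 178 measured genes on marker lists of cells that the gate should not contain (epithelium, leukocytes, endothelium, smooth muscle, glia, fat and red cells), and is called carry-over here. The second held 9977 genes outside those lists with at least 1 FPKM in each of the 6 other mesenchymal libraries, called shared mesenchymal genes. The remaining 4794 genes were unplaced. The shared class does not say that epithelium lacks a gene. The unplaced class also holds genes of the sorted cells: Foxl1 itself stood at 10.2 and 11.6 FPKM in the genotype libraries and at 0.109 to 0.289 FPKM in the other 6. Of 23 genes listed for Foxl1-positive cells, 14 reached 1 FPKM in all 6.

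The deposited totals were 513001 FPKM in control and 528318 FPKM in knockout cells, with 21006 and 20874 genes above 0. Low FPKM values moved in steps. Among 5175 genes below 1 FPKM the most frequent ratio of knockout to control was 0.7982, shared by 672 genes. The next most frequent, 0.3991 (335 genes), 1.5964 (320 genes), 0.5321 (184 genes) and 2.3945 (176 genes), were 0.5, 2, 0.667 and 3 times that value, each a ratio of small whole numbers. Taken as the worth of 1 fragment, this step makes the knockout library 1.25 times as deep as the control. With GENCODE transcript lengths, 1 FPKM then stood for about 4.72 fragments per kilobase in the control and 5.93 in the knockout library. A 2 kb transcript at 10 FPKM would rest on about 94 and 119 fragments, and at 1 FPKM on about 9.4 and 11.9. Genes near 1 FPKM therefore carry a large counting error, and the estimates would absorb any rescaling of FPKM upstream. Both genotype libraries carried Y-linked transcripts and little Xist, the RNA that silences an X chromosome in female cells. Ddx3y stood at 27.4 and 34.2 FPKM, Eif2s3y at 24.4 and 21.3 FPKM and Xist at 0.181 and 0.188 FPKM. In the other 6 libraries Ddx3y was at most 0.0117 FPKM and Xist lay between 2.74 and 3.65 FPKM.

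Cxcl12, the targeted gene, was lower in the knockout library and stayed among the most abundant transcripts. It stood at 1298 FPKM in control and 740 FPKM in knockout cells, or 57.0% of the control level and a log2 ratio of -0.81. The other 6 libraries, whose Cxcl12 gene is not labelled as floxed, lay between 860 and 969 FPKM. The knockout value was below all 6 and the control value above all 6. Because these 6 were normalised separately, they set no baseline for either genotype. The 3 replicates at 0 h spanned 0.09 on the log2 scale. Both rankings that follow leave out predicted, ribosomal, histone, small RNA and mitochondrial genes. Among the 107 genes with a mean of 500 FPKM or more Cxcl12 had the lowest ratio, and the next stood at -0.32. Among 6097 genes averaging 10 FPKM or more it ranked 11 from the lowest. In a bulk sample fewer Cxcl12-expressing cells and less Cxcl12 RNA per cell cannot be told apart.

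Genes that act on CXCL12 differed little or were scarce. Ackr3, the scavenging receptor, stood at 137 FPKM in control and 143 FPKM in knockout cells. Cxcr4, the signalling receptor, stood at 2.60 and 1.68 FPKM, and Dpp4 at 4.03 and 3.21 FPKM, levels at which few fragments decide a ratio. Cxcl12 lies on chromosome 6 from 117168535 to 117181367 on the plus strand of GRCm38. Of its 3 nearest measured genes on each side, 5 of 6 lay within 1.5-fold. These were Rassf4 (1.94 and 2.27 FPKM), Zfp422 (10.3 and 11.4 FPKM), Zfp637 (55.9 and 53.4 FPKM), Zfp239 (2.21 and 2.02 FPKM) and Hnrnpf (159 and 190 FPKM). The exception was Tmem72, at 1.97 and 0.81 FPKM. Beside Foxl1, whose regulatory sequence drives the Cre, Foxf1 stood at 151 and 143 FPKM and the noncoding RNA Fendrr beside it at 29.1 and 28.5 FPKM. Mthfsd, the nearest measured gene to Foxl1 on its lower-coordinate side, stood at 6.75 and 11.6 FPKM. The Foxl1 neighbours were named after their values were seen.

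The labelled identity of the cells was present in both libraries. Pdgfra stood at 202 FPKM in control and 226 FPKM in knockout cells, and Pdpn, which encodes gp38, at 96.1 and 91.7 FPKM. Ly6c1, whose protein the gate excluded, stood at 141 and 89.6 FPKM, so its RNA was plainly present in both. The markers of other gated-out cells were also present: Epcam at 4.18 and 14.6 FPKM, Ptprc (CD45) at 4.82 and 6.85 FPKM and Pecam1 (CD31) at 4.86 and 2.75 FPKM. In the other 6 libraries Epcam reached at most 0.480 FPKM, Ptprc 0.216 FPKM and Pecam1 0.165 FPKM.

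**Figure D1:**
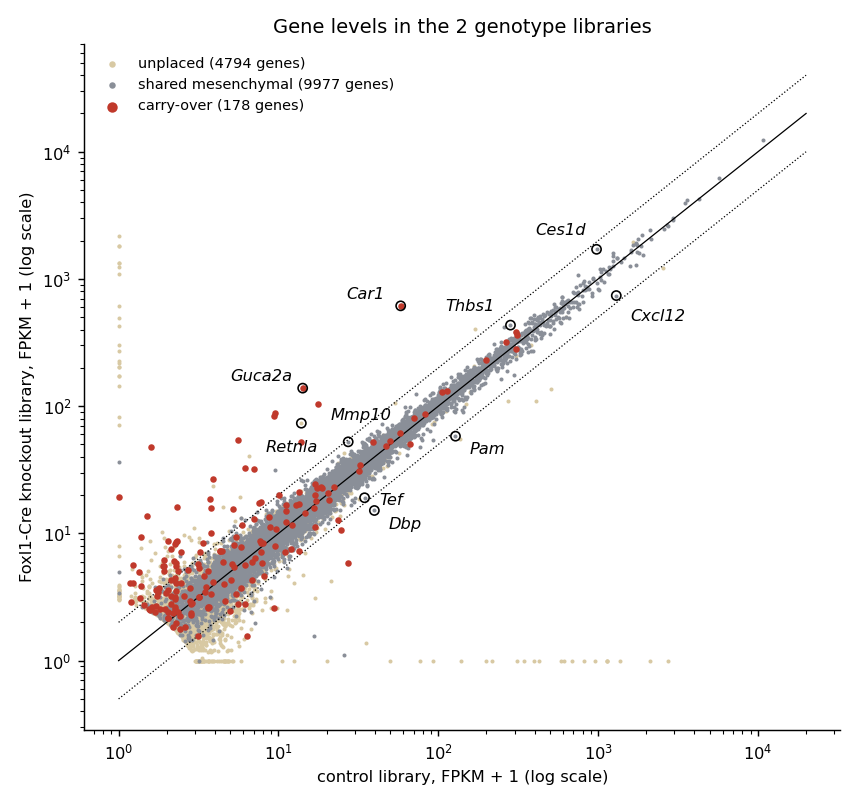
Each point is 1 gene, with FPKM + 1 in the control library on the horizontal axis and in the knockout library on the vertical axis, both on log scales. The solid line marks equal values and the dotted lines a 2-fold difference. Shared mesenchymal genes (grey) hug the diagonal, and Cxcl12 lies below it at 1298 and 740 FPKM. Of the 178 carry-over genes (red), 130 lie above it, such as Car1 and Guca2a, and 48 below it. The points along the axes are mostly small RNA genes listed at 0 in 1 library.

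Over all genes, 55% were higher in the knockout library by any amount and 45% lower. In all, 204 were at least 2-fold higher in the knockout library (1.36%) and 332 at least 2-fold lower (2.22%). At 1.5-fold the counts were 622 higher (4.16%) and 1046 lower (7%). The 3 classes contributed unequally. Of the 9977 shared mesenchymal genes, 20 were at least 2-fold higher (0.2%) and 24 lower (0.241%). Unplaced genes gave 138 (2.88%) and 300 (6.26%), and carry-over genes 46 (25.8%) and 8 (4.49%). The share also differed by level: 8.58% of genes between 1 and 2 FPKM lay at least 2-fold apart, against 0.642% of genes between 10 and 50 FPKM. Genes averaging 10 FPKM or more leaned upward by a median of 0.09, with 68.2% of 6435 genes higher, and genes between 1 and 2 FPKM leaned downward by a median of -0.16. A count of higher members in a list below is to be read against these shares.

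Among well-measured shared mesenchymal genes few differed between the genotypes, and more of them at 1.5-fold than between replicate libraries. Of 6026 such genes averaging 10 FPKM or more, 7 differed at least 2-fold between knockout and control (0.116%), 4 of them higher (0.0664%) and 3 lower (0.0498%). At 1.5-fold they differed in 104 genes (1.73%), 69 higher (1.15%) and 35 lower (0.581%). Over the same genes, pairs of replicates in the other 6 libraries gave 0.0664% to 0.116% at 2-fold and 0.664% to 1.38% at 1.5-fold. Some of these genes are low in the other libraries, so the comparison was repeated, after the data were seen, over the 5113 that averaged 10 FPKM or more there too. The genotypes then differed at least 2-fold in 5 genes (0.0978%) and 1.5-fold in 71 (1.39%), against 0.0391% to 0.0782% and 0.254% to 0.704% between replicates. Over these 5113 genes the standard deviation of the log2 ratio was 0.23 between genotypes and 0.15 to 0.20 between replicates. The replicate pairs come from other libraries, of another depth and normalised separately, so this is a yardstick and not a test.

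**Figure D2:**
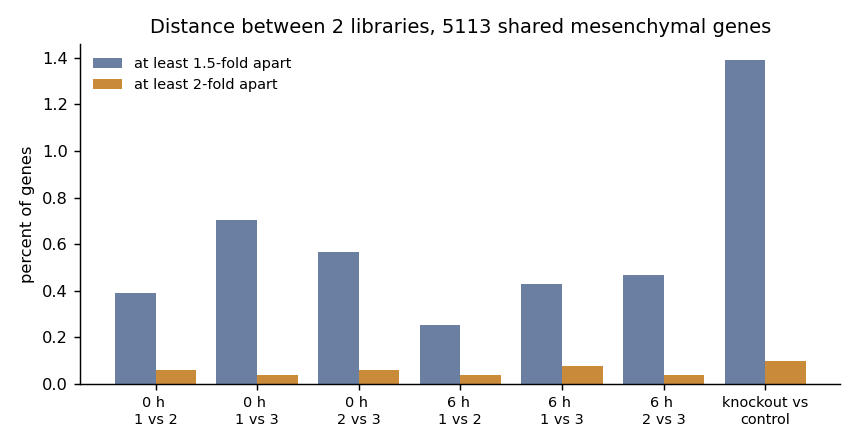
Bars give the percentage of the 5113 shared mesenchymal genes averaging 10 FPKM or more in both kinds of library that lay at least 1.5-fold or 2-fold apart between 2 libraries, for 3 pairs of replicates at 0 h, 3 at 6 h, and knockout against control. The genotype pair has the highest bars, at 1.39% for 1.5-fold and 0.0978% for 2-fold, where replicate pairs reach 0.704% and 0.0782%.

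The shared genes furthest below the control, apart from Amd1, were Dbp, Pam and Tef, ahead of Cxcl12. Dbp, a D-box binding factor that the clock drives, stood at 38.8 FPKM in control and 14.1 FPKM in knockout cells, a log2 ratio of -1.39. Tef, a relative of Dbp with the same target site, stood at 33.6 and 18.1 FPKM, a ratio of -0.86. Pam, the enzyme that amidates peptide hormones, stood at 127 and 57.1 FPKM, a ratio of -1.14. In the other 6 libraries Pam lay between 2.86 and 4.21 FPKM. Dbp lay there between 31.0 and 39.8 FPKM, a range that held its control value and lay above its knockout value. Those libraries were normalised separately, so their levels are no baseline for either genotype. Tef lay between 34.6 and 46.0 FPKM in the other 6, just above its control value and well above its knockout value.

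Below Cxcl12 the named genes had ratios nearer 0. Uqcc3, an assembly factor of respiratory complex III, stood at 27.6 and 15.6 FPKM. Bola2, of iron-sulfur protein assembly, stood at 91.1 and 53.6 FPKM, and Rad1, of the DNA damage checkpoint, at 44.6 and 26.5 FPKM. Sphk2, a sphingosine kinase, stood at 15.4 and 9.11 FPKM, and Pik3ip1, an inhibitor of PI3 kinase, at 27.9 and 17.2 FPKM. Sphk2 overlaps Dbp on the opposite strand, and these libraries do not mark strand. The part of Dbp reads in the Sphk2 values was not tested. The host RNA Snhg8 (28.5 and 16.6 FPKM), Meaf6 (14.5 and 8.53 FPKM) and the interferon-inducible GTPase Iigp1 (14.8 and 8.83 FPKM) complete the group, together with Rsph9 and Rab13. Rsph9 (19.3 and 11.1 FPKM) and Rab13 (20.1 and 11.9 FPKM) differed by less than the range of their 3 replicates at 0 h. Amd1, an enzyme of polyamine synthesis, had the lowest ratio of the shared genes named (-4.54), at 24.6 and 0.1001 FPKM, while its near-identical copy Amd2 stood at 8.57 and 30.7 FPKM. Reads shared by such copies can be split either way, and their sum was 33.2 FPKM in control and 30.8 FPKM in knockout cells.

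Higher shared genes included a lipid hydrolase at very high level. Ces1d, a carboxylesterase that hydrolyses triacylglycerol, stood at 976 FPKM in control and 1710 FPKM in knockout cells, a log2 ratio of 0.81. This was the largest upward difference among the 107 genes of 500 FPKM or more ranked above. Mmp10, a matrix metalloproteinase, stood at 26.3 and 51.5 FPKM (0.94), and Enpep, the aminopeptidase that cleaves angiotensin II, at 12.9 and 25.5 FPKM (0.93). Papss2, which makes the sulfate donor of proteoglycans, stood at 13.3 and 24.7 FPKM, and Stmn1, a microtubule-destabilising protein, at 14.0 and 25.4 FPKM.

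Lgals3 (galectin-3) stood at 71.0 and 124 FPKM. It is also abundant in colon epithelium, whose transcripts were higher in the knockout library, and the part of that RNA in the difference was not tested. The others were the splicing gene Snrpf (20.5 and 36.2 FPKM), the RNA-binding protein gene Rbm4b (7.35 and 14.4 FPKM), Cklf (8.997 and 19.4 FPKM), Zbtb8os (9.33 and 18.1 FPKM), Rp2h (8.80 and 16.9 FPKM) and AW551984 (6.29 and 13.8 FPKM). Snhg9 was listed at 0 for control cells and at 35.7 FPKM for knockout cells. Of 43 genes averaging 10 FPKM or more and listed at 0 in a library, 42 were microRNA, snoRNA or scaRNA genes, and Snhg9 was the remaining one. These small genes also dominate the large ratios: of 61 genes outside the carry-over lists that averaged 10 FPKM or more and lay at least 2-fold apart, 51 belonged to classes that were passed over (predicted genes, small RNAs, ribosomal and histone genes).

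Genes of the circadian clock lay on both sides of the diagonal. In this clock BMAL1 (encoded by Arntl) pairs with CLOCK or NPAS2 and binds E-boxes in the genes of its own repressors and outputs, such as Per, Cry, Nr1d1, Dbp, Tef and Ciart. REV-ERB proteins (Nr1d1, Nr1d2) repress and ROR proteins activate Arntl, Clock, Npas2, Cry1 and Nfil3 through a shared site, so the groups peak at different phases of the day. Of 18 measured clock genes, 9 were higher and 9 lower, 2 of them higher by 1.5-fold or more and 4 lower by as much. The median was 0.02.

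The 5 genes named above for the REV-ERB and ROR site were higher in the knockout library. Arntl stood at 13.7 FPKM in control and 22.9 FPKM in knockout cells (0.70), Cry1 at 6.01 and 9.53 FPKM (0.59) and Npas2 at 8.83 and 12.3 FPKM (0.44). Clock (7.49 and 8.59 FPKM) and Nfil3 (34.7 and 39.1 FPKM) lay above their control values by less. Arntl lay between 24.5 and 29.9 FPKM in the other 6 libraries, above both genotype libraries and nearer the knockout value.

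Output factors and repressors were mostly lower. Beside Dbp and Tef, the third member of their family, Hlf, stood at 5.88 and 3.54 FPKM (-0.60). Nr1d1 stood at 126 and 89.3 FPKM (-0.49) and Nr1d2 at 34.2 and 28.2 FPKM. The repressor gene Ciart stood at 5.37 and 3.21 FPKM (-0.60), Per3 at 3.39 and 2.02 FPKM (-0.54) and Bhlhe41 at 1.95 and 1.09 FPKM (-0.50). Per1 (9.11 and 11.2 FPKM), Per2 (2.53 and 2.81 FPKM) and Cry2 (30.0 and 34.5 FPKM) went the other way, and Bhlhe40 (201 and 192 FPKM) hardly differed. Under 10 FPKM these differences rest on fewer fragments. The grouping by site follows textbook knowledge and was made after the values were seen, and so was the choice of members other than Dbp, Tef, Arntl and Hlf.

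**Figure D3:**
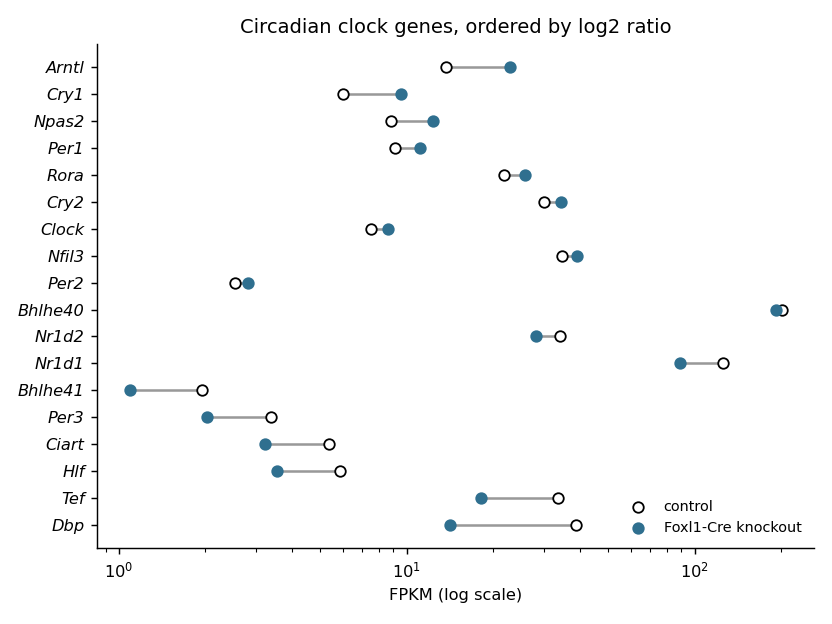
Each row is 1 of the 18 measured clock genes, with its FPKM on a log scale in the control (open) and knockout (filled) library, ordered by log2 ratio. Arntl, Cry1 and Npas2 lie to the right of their control values and Dbp, Tef, Hlf, Ciart and Per3 to the left, with Dbp moving furthest, from 38.8 to 14.1 FPKM.

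Promoter windows of 300 bases, from 250 before to 50 after the transcript start, were read from RefSeq (GRCm38.p6) for 16 of the 18 clock genes. The letters searched on both strands were the E-box CACGTG, the ROR half-site AGGTCA, the D-box TTANGTAA and, for sterol genes, TCACNCCAC. Some genes had several transcript starts and so several windows, and a gene was counted if any window held the letters. The E-box was found in 5 of the 16 genes, against 10.8% of 11289 measured genes with a window. The ROR half-site was found in 5 (15.6% of all) and the D-box in 1 (2.13% of all). The windows below show these letters in 3 genes that were lower (Ciart, Tef, Per3) and 1 that was higher (Arntl), chosen after values and matches were known. Capitals mark every match of the 4 motifs, and sequences run 5′ to 3′ on the gene's strand.
Ciart, chr3:95882179-95882478, minus strand, 3 E-boxes: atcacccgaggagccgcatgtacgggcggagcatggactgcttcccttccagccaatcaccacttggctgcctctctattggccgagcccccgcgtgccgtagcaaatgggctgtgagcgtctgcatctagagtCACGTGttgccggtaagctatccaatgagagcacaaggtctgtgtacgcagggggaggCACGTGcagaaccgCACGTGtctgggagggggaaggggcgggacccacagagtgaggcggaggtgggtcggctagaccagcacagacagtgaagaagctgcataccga
Tef, chr15:81811164-81811463, plus strand, 1 E-box: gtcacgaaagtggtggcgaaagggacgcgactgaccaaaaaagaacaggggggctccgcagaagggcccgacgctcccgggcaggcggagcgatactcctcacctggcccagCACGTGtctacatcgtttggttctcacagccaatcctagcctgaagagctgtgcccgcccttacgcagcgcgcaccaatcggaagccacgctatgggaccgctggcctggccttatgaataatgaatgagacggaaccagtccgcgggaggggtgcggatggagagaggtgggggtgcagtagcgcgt
Per3, chr4:151044616-151044915, minus strand, 2 D-boxes: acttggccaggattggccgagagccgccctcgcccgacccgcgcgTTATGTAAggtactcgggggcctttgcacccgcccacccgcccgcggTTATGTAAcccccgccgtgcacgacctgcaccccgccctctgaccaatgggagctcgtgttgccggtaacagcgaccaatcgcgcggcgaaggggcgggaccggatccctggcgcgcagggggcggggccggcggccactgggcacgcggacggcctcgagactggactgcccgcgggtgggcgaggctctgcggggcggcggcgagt
Arntl, chr7:113207261-113207560, plus strand, 1 ROR half-site: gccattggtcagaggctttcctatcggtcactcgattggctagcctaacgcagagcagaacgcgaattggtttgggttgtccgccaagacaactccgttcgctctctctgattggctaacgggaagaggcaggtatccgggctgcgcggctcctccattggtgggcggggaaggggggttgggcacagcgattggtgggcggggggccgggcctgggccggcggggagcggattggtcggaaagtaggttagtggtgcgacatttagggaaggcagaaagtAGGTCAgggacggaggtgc
Ciart, Tef and Bhlhe41, all lower, held E-boxes, and so did Cry1 and Per1, both higher. The ROR half-site was in windows of Arntl, Clock, Nfil3 and Per1, all higher, and of Nr1d2, which was lower, while Cry1 held none. Other windows of Arntl, Clock and Per1 held no match to any motif. Dbp, Nr1d1, Npas2 and Hlf held none of these letters in the window, which says nothing of sites elsewhere. A match is a description of sequence and not evidence of binding.

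Cholesterol synthesis genes were higher almost throughout. Of 23 measured, 22 were higher and 1 lower, with a median of 0.22, and 5 were at least 1.5-fold higher. Relative to the median of genes averaging 10 FPKM or more, 19 of the 23 lay above. Tm7sf2, a sterol reductase, stood at 3.6 and 6.12 FPKM (0.63). Hmgcs1, an early enzyme of the pathway, stood at 35.0 and 53.9 FPKM (0.61), Idi1 at 23.5 and 36.03 FPKM (0.60) and Sqle, squalene epoxidase, at 32.8 and 49.8 FPKM (0.59). Sqle was named after its values were seen. Mvk was the lower one, at 15.02 and 12.95 FPKM. Promoter windows were at hand for 16 of the 23 genes. The sterol letters TCACNCCAC were found in 1 of these 16 genes, Hmgcs1, against 1.36% of measured genes with a window. This list and those below were chosen with earlier results of these data known.

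Immediate early genes, which respond within minutes to stimulation, were mostly abundant in both libraries and slightly higher in the knockout. Both libraries had 100 FPKM or more for 16 of 29 and 10 FPKM or more for 25. Of the 29, 28 were higher, with a median of 0.22, and 2 reached 1.5-fold. Relative to the median of genes at 10 FPKM or more, 23 of the 29 lay above. Fos stood at 3478 and 3923 FPKM against 54.5 to 74.1 FPKM in the other 6 libraries, and was named after its values were seen. The largest ratios were those of Maff (7.77 and 13.2 FPKM, 0.70), Nr4a2 (40.1 and 62.5 FPKM, 0.63), Fosl1 (1.86 and 3.29 FPKM, 0.58) and Nr4a3 (13.2 and 17.7 FPKM, 0.40).

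Matrix genes leaned upward by small amounts. Of 22 collagens 18 were higher, with a median of 0.16 and none at 1.5-fold. Col5a3 (81.2 and 112 FPKM) and Col6a3 (131 and 178 FPKM) differed most, and Col1a1 (1230 and 1387 FPKM), named after its values were seen, differed by 0.17. Of 38 glycoproteins and proteoglycans 30 were higher, with a median of 0.17 and 2 at 1.5-fold. Those 2 were Thbs1, the thrombospondin that activates latent TGF-beta (282 and 433 FPKM, 0.62), and Fmod, fibromodulin (3.07 and 5.14 FPKM, 0.59). Of 25 matrix proteases and inhibitors 21 were higher, with a median of 0.14. After Mmp10 came Adamts4, an aggrecanase (61.7 and 89.6 FPKM), Mmp3 (24.0 and 33.8 FPKM) and Plat, tissue plasminogen activator (91.5 and 127 FPKM). Relative to the median of genes at 10 FPKM or more, 15 of 22, 28 of 38 and 17 of 25 members of these 3 lists lay above.

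BMP and TGF-beta ligands lay close to equal. Of 12 measured none reached 1.5-fold. Bmp4 stood at 424 and 443 FPKM, Bmp5 at 189 and 196 FPKM and Bmp7 at 85.1 and 87.0 FPKM, all named after their values were seen. The largest ratios in that list belonged to Inhba, an activin subunit (14.9 and 19.8 FPKM, 0.39), and Gdf15, a stress-induced hormone (20.9 and 15.8 FPKM, -0.38). Their median of 0.04 turned negative once the general lean of 0.09 was subtracted, and so did the medians of the lists for Wnt ligands and R-spondins (0.06), Foxl1-positive cells (0.03), PDGFRA-low fibroblasts (0.08), chemokines (0.00) and the clock (0.02).

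Of 9 Wnt ligands and R-spondins, 5 were higher and 4 lower, none by 1.5-fold on the FPKM + 1 scale. On plain FPKM, 1 was higher and 2 were lower by as much. Wnt4 stood at 18.1 and 11.9 FPKM (-0.57) and Wnt2b, a ligand that sustains intestinal stem cells, at 16.9 and 12.5 FPKM (-0.41). Wnt2 stood at 6.25 and 9.64 FPKM (0.55), and Rspo1, an R-spondin that amplifies Wnt signals, at 3.30 and 2.15 FPKM. Secreted Wnt antagonists were lower in 6 of 8, with a median of -0.14, led by Wif1 at 26.3 and 20.8 FPKM (-0.32). BMP antagonists and targets had 7 of 15 higher, with Fst, follistatin, furthest at 1.86 and 3.44 FPKM. Gli1, a hedgehog target, stood at 7.52 and 5.36 FPKM, while 7 of 11 genes of the hedgehog response were higher, with a median of 0.17.

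Growth factors varied more. Areg, amphiregulin, a ligand of the EGF receptor, stood at 9.05 and 15.6 FPKM (0.72), and 5 of 9 EGF receptor ligands were higher. Of 24 other growth factors 16 were higher and 8 lower, with a median of 0.12. Igf1 stood at 24.8 and 36.7 FPKM (0.55), Vegfc at 15.3 and 20.9 FPKM (0.43) and Fgf1 at 7.39 and 10.2 FPKM (0.42). Fgf2 was the one at least 2-fold lower, at 5.77 and 2.30 FPKM (-1.04). Among 19 chemokines other than Cxcl12, 10 were higher and 9 lower, and the 1 past 1.5-fold was Ccl5, at 3.13 and 1.498 FPKM. Higher by 0.45 and 0.42 were the monocyte chemokines Ccl7, at 223 and 305 FPKM, and Ccl2, at 173 and 232 FPKM.

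Other metabolic and stress lists differed by little. Of 18 genes of amino acid transport and the ATF4 response, 14 were higher, with a median of 0.20 and 3 at 1.5-fold. These 3 were the amino acid transporter Slc38a4 (3.03 and 5.61 FPKM), Psat1 of serine synthesis (7.21 and 11.98 FPKM) and Asns, asparagine synthetase (7.97 and 13.1 FPKM). Of 20 genes of fatty acid synthesis and oxidation 16 were higher, with a median of 0.21. Lpl, lipoprotein lipase, stood at 63.7 and 90.3 FPKM, and the adipogenic receptor gene Pparg at 24.3 and 32.9 FPKM. Cd36, a fatty acid receptor that capillary endothelium also expresses, was lower, at 8.49 and 4.22 FPKM. Of 20 glycolysis genes 16 were higher, with a median of 0.13, and of 25 genes of oxidative phosphorylation 16, with a median of 0.08. Only 10 of these 25, and 13 of the 20, lay above the median of genes at 10 FPKM or more. With that median subtracted, the oxidative phosphorylation median was -0.009. For amino acid transport and ATF4 genes 11 of 18 lay above it, and for fatty acid genes 14 of 20. The glucose transporter gene Slc2a1 stood at 11.2 and 15.3 FPKM and Ndufa9, of respiratory complex I, at 61.7 and 85.4 FPKM.

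Interferon-stimulated genes were evenly split, with 13 of 26 higher and none at 1.5-fold on the FPKM + 1 scale. On plain FPKM, 1 was higher and 2 were lower by that much. Irf7 stood at 11.4 and 17.1 FPKM and Rtp4 at 14.7 and 9.77 FPKM. Genes of MHC class I presentation had a median of 0.02 over 12, with H2-D1 at 692 and 791 FPKM. Prostaglandin genes lay within 1.5-fold in 14 of 15, and Ptgs2, the inducible cyclooxygenase, named after its values were seen, stood at 72.9 and 74.8 FPKM. The exception was Ptgds, at 2.35 and 0.268 FPKM, also named in that way. Among 14 interleukins and cytokines, Il18 (2.43 and 5.82 FPKM), which epithelium also makes, was higher and Il15 (18.2 and 12.04 FPKM) lower. Of 25 cell cycle genes 15 were higher. The replication helicase gene Mcm6 (4.27 and 10.4 FPKM) and the mitotic kinase gene Aurka (1.29 and 3.29 FPKM) were higher, while Ccnb1 (9.42 and 6.54 FPKM) and the proliferation marker Mki67 (1.97 and 1.25 FPKM), named after its values were seen, were lower, so these cell cycle genes did not share a direction.

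**Figure D4:**
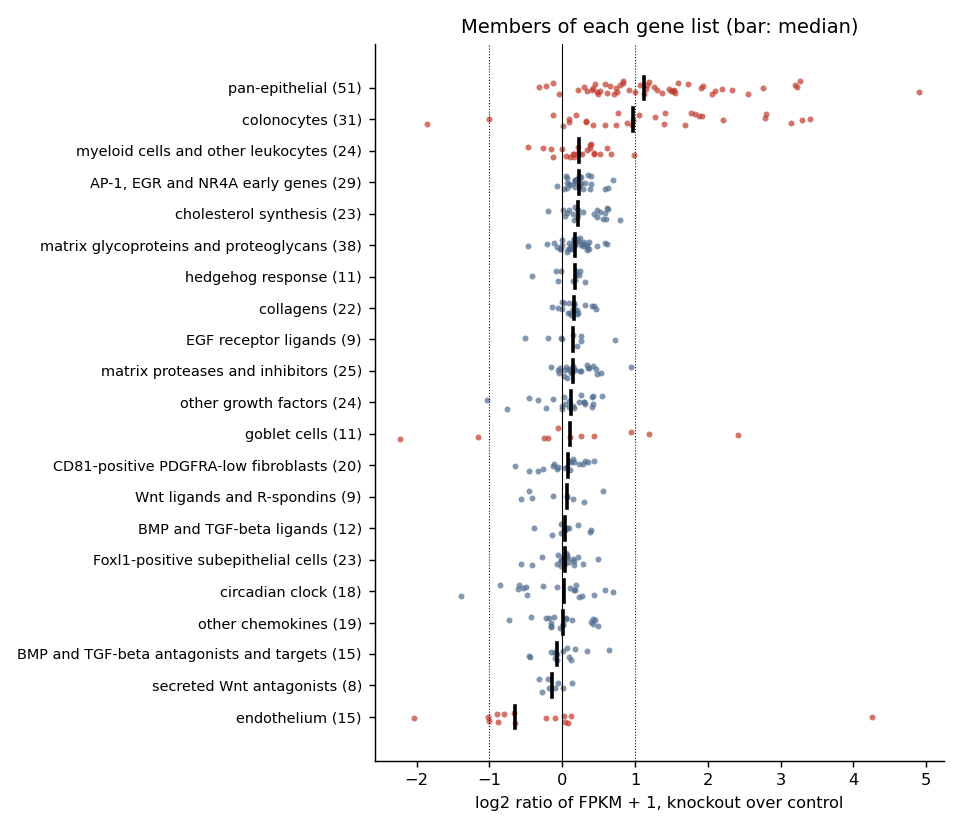
Points are the measured members of each list, placed by log2 ratio of FPKM + 1 (knockout over control), with black bars at list medians, the number measured in brackets, and dotted lines at 2-fold. Carry-over lists (red) spread far to the right for epithelium, with medians of 1.12 and 0.98, and to the left for endothelium (-0.64), while the lists of mesenchymal signals and matrix (blue) have medians between -0.14 and 0.22.

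Epithelial transcripts were kept apart because the gate excluded EpCAM-positive cells. The carry-over lists took 0.570% of the total FPKM in the control and 0.861% in the knockout library. Of the 178 genes, 27 also had at least 1 FPKM in each of the other 6 libraries, among them Acta2 (305 and 382 FPKM), of contractile cells, named after its values were seen. These 27 took 0.246% and 0.267%, and the remaining 151 took 0.324% and 0.595%. Of 51 pan-epithelial genes 47 were higher, 27 of them at least 2-fold, with no member 2-fold lower, and their summed level was 441 and 873 FPKM. Plac8 alone, named after its values were seen, gave 305 and 280 FPKM and lay between 71.9 and 89.0 FPKM in the other 6 libraries. Without it the sums were 136 and 592 FPKM. Of 31 colonocyte genes 28 were higher, 15 at least 2-fold and 2 lower by as much, with sums of 201 and 1087 FPKM. Car1, a carbonic anhydrase, stood at 57.2 and 614 FPKM and made up 56.5% of the knockout sum. Without it the sums were 144 and 473 FPKM. Whether more epithelial cells or more free RNA gave these sums was not tested.

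The linear ratio was not the same in all epithelial genes. Over 77 listed genes with at least 1 FPKM in both libraries its median was 1.95, with quartiles of 1.14 and 4.03 and a range from 0.184 to 11.5. Colonocyte genes had a median of 2.15 over 24 genes and pan-epithelial genes 2.42 over 35, while goblet cell genes had 1.10 over 9. The minimum leaves out genes under 1 FPKM in the control. With a minimum of 0.2 FPKM in both libraries, 138 listed genes also had a median of 1.95, and the highest ratio was 77.4. Among goblet genes Zg16 stood at 5.17 and 31.9 FPKM and Tff3 at 6.50 and 16.2 FPKM, both higher in the knockout library. Reg4 at 5.15 and 1.76 FPKM and the pentraxin gene Mptx1 at 26.2 and 4.83 FPKM were lower. The antimicrobial lectins Reg3b (23.6 and 9.57 FPKM) and Reg3g (10.97 and 6.49 FPKM) were lower as well, and Lyz1, lysozyme of Paneth cells, was higher (9.04 and 18.9 FPKM). Muc2, the defining mucin of goblet cells, was under the filter in both libraries, at 0.456 and 0.631 FPKM. Both measured enteroendocrine genes, Chgb (4.40 and 2.32 FPKM) and Cck (5.82 and 3.32 FPKM), were lower. Cck lay between 41.3 and 76.0 FPKM in the other 6 mesenchymal libraries, above both genotype libraries.

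**Figure D5:**
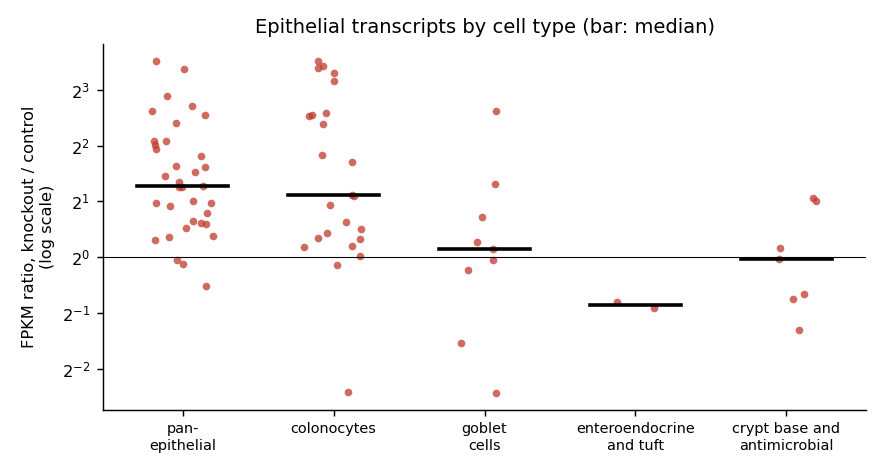
Points are listed epithelial genes with at least 1 FPKM in both libraries, by cell type, and the vertical log axis gives the FPKM ratio of knockout to control, with bars at medians. Pan-epithelial and colonocyte genes centre on 2.42 and 2.15, while goblet cell genes centre on 1.10 and reach from 0.184 to 6.17.

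Other cell types outside the gate gave smaller or opposite differences. Of 24 myeloid genes 19 were higher, with sums of 901 and 1072 FPKM, led by Adgre1 (1.24 and 3.44 FPKM) and the complement genes C1qb (12.4 and 20.3 FPKM) and C1qc (7.78 and 12.4 FPKM). Of 11 lymphocyte genes 7 were higher, among them Cd2 (2.13 and 4.76 FPKM). Endothelial genes were lower in 10 of 15, 8 of them by at least 1.5-fold, including Egfl7 (5.40 and 0.557 FPKM), Emcn (3.97 and 1.44 FPKM) and Kdr (4.57 and 1.78 FPKM). Ccl21a, a chemokine of lymphatic vessels with near-identical copies, stood at 0.00502 and 18.2 FPKM. The endothelial cadherin gene Cdh5 stood at 0.577 and 0.628 FPKM, under the filter, and like Muc2 it was named after its values were seen. Only 3 endothelial genes reached a mean of 10 FPKM, and their median was 0.03. One of them, Plvap, stood at 22.5 and 11.8 FPKM (-0.88), and at no more than 0.600 FPKM in the other 6 libraries. Tek (19.4 and 19.9 FPKM) and Eng (48.5 and 52.6 FPKM) were near equal. In the other 6 libraries Tek was at least 6.75 FPKM and Eng at least 22.4 FPKM. These 3 were named after their values were seen. Smooth muscle and pericyte genes were split evenly, 7 higher and 7 lower.

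The named unplaced genes reached at most 1.87 FPKM in any of the other 6 libraries, and several encode secreted proteins. Retnla, a small cytokine-like protein also called RELM-alpha, stood at 12.9 FPKM in control and 72.5 FPKM in knockout cells (2.40). Dmbt1, a mucosal scavenger protein of epithelia, stood at 2.92 and 22.5 FPKM (2.58). Haptoglobin (Hp, 7.35 and 13.3 FPKM), the chemokine Ccl6 (8.59 and 14.0 FPKM), the lectin Chodl (9.40 and 15.2 FPKM), the fibroblast protease Fap (12.8 and 20.4 FPKM), the transporter Abcc3 (7.61 and 12.8 FPKM) and the pseudogene Speer8-ps1 (24.7 and 42.0 FPKM) were higher. Lower were the defensin Defb40 (20.4 and 3.25 FPKM, -2.33), Nnat (15.1 and 8.13 FPKM), the interleukin-36 gene Il1f9 (23.2 and 12.8 FPKM), the neurotrophin Ntf3 (16.3 and 9.94 FPKM) and the endothelin Edn3 (24.9 and 15.8 FPKM). Cmbl (13.2 and 8.03 FPKM), Izumo4 (12.6 and 7.86 FPKM) and the globin gene Hbb-b2 (20.5 and 12.5 FPKM) complete the 8 lower ones. The sums of pan-epithelial, colonocyte and myeloid genes were also higher in the knockout library. Those of endothelial genes (144 and 132 FPKM) and lymphocyte genes (117 and 111 FPKM) were lower. Jchain alone made up 56.0% of the lymphocyte sum in the control. Without it the lymphocyte sums were 51.4 and 60.7 FPKM, higher in the knockout library. Which cells supplied the unplaced transcripts was not tested.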

How the data were processed

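The authors deposited 1 table per library with FPKM for each gene symbol, per the file headers. Tools listed in the submitters' processing notes, without their order, are Cuffdiff 2.2.1, TopHat2 2.1.1, SAMtools 0.1.18 and Bowtie2 2.2.8, on mm10. Their annotation, scaling of libraries and treatment of multi-mapped reads were not stated there. Per the labels' protocols, cDNA was made with SMART-Seq HT and libraries with Nextera XT, which do not mark strand, so overlapping antisense genes cannot be told apart. The groups were taken from the labels.

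Log2 ratios of FPKM + 1 were computed in Python 3.11.15 with pandas 2.3.3 over genes averaging 1 FPKM or more. The scripts were tested on simulated data. Members and lists (49 lists, 965 genes, of which 953 were in the tables) were chosen with earlier results of these data known. Named genes were a fixed set, the 15 largest differences each way among shared and 8 among unplaced genes at 10 FPKM or more, up to 4 members per list at 2 FPKM or more, and the genes beside Cxcl12. Predicted, ribosomal, histone, small RNA and mitochondrial genes were passed over, and a few genes that these rules name are not reported here. Gene positions came from GENCODE on GRCm38, and promoters from RefSeq. Pseudocounts, filters and scalings were varied.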

Additional observations from a re-analysis of the deposited data

How the results depend on the processing

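Cxcl12 kept its direction under each pseudocount and scaling tried, with log2 ratios from -0.90 to -0.81, and the median epithelial ratio over genes present in both libraries stayed between 1.89 and 1.95 with other minimum levels. The log2 medians of the pan-epithelial and colonocyte lists kept their direction but not their size. That of pan-epithelial genes (1.12) was 1.45 with a pseudocount of 0.1, 0.43 with a pseudocount of 5, 0.81 with no filter and 2.34 over the 9 members at 10 FPKM or more. That of colonocyte genes (0.98) was 1.56, 0.46, 0.50 and, over 8 members, 2.50. The median of goblet cell genes (0.10) was 0 with no filter. The median of crypt base and antimicrobial genes (0.05) was -0.025 over the 3 members at 10 FPKM or more. The counts over all genes depend on how low values are treated. Genes at least 2-fold higher numbered 204, and 384 with a pseudocount of 0.1, 58 with a pseudocount of 5, 44 with a mean of at least 10 FPKM and 20 among shared mesenchymal genes. Genes at least 2-fold lower numbered 332, and 766, 42, 33 and 24 under the same settings. The median share of genes 2-fold apart between replicate libraries was 0.493% over all genes, 0.143% at a mean of at least 10 FPKM and, in an alternative chosen after seeing the data, 0.0489% over shared genes at that level in both kinds of library. Further alternatives of that kind left out 1 gene: the ratio of summed pan-epithelial FPKM went from 1.98 to 4.36 without Plac8, and that of colonocyte genes from 5.41 to 3.29 without Car1. Of 126 medians recomputed over 21 lists, 111 moved by less than 0.115, the median standard deviation between replicates at 0 h, 14 moved by more, and that of endothelium went from -0.64 to 0.031 at 10 FPKM or more, where 3 members were left. No paired analysis was possible because each genotype has 1 library. The depth is an estimate from steps in low FPKM, and differences under 10 FPKM rest on fewer fragments.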
